A study of Mus musculus with 10 samples.

Results

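The insulin-like growth factor 1 (IGF1) axis was examined in mouse embryonic fibroblasts (MEFs) through 8 genes of the deposited gene table: the ligand Igf1, its receptor Igf1r and the binding proteins Igfbp2, Igfbp3, Igfbp4, Igfbp5, Igfbp6 and Igfbp7. The genes were chosen by symbol, as 8 of the 52550 genes in the table, and all 8 were among the 13615 genes with enough reads to be tested. The study set 5 female libraries (female replicates 1 to 5) against 5 male libraries (male replicates 1 to 5). All 10 came from C57BL/6 embryos at embryonic day 14, as primary cells labelled passage 3 and grown in DMEM with 10% fetal bovine serum. No library carried a mutation, a transgene or a treatment according to the labels. Libraries were strand-specific and made from total RNA after removal of ribosomal RNA. Nothing in the labels tells separate embryos or cultures from repeat libraries of the same cells, so the p-values below describe only the spread of these 10 samples, which could be technical.

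IGF1 and its relative IGF2 bind the receptor tyrosine kinase IGF1R, which signals through insulin receptor substrates to the PI3K and AKT pathway and to the MAP kinases and promotes growth and survival. Secreted IGF binding proteins hold the ligands in the extracellular space, carry them, limit or prolong their access to the receptor, and release them when proteases cut the binding protein. Fibroblasts are a known source of IGFs and of several binding proteins, and bovine serum brings IGFs and binding proteins of its own, which RNA libraries do not measure.

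Each library held between 22588200 and 32744611 unique exon reads, the counts used here, and 22.5 to 28.6% of unique gene reads lay in introns. Fibroblast markers were present throughout, with 9 of 9 listed genes read in every library. Col1a1, a collagen chain, stood at 1194 to 1602 and Vim, vimentin, at 2526 to 2894 RPKM. These were the highest of the list, and levels went down to 5.34 to 11.4 RPKM for Dcn and 0.768 to 3.82 RPKM for Lum. Of the markers of other cell types, macrophage genes were read in every library (10 of 10 genes, summed level 56.5 to 146 CPM in females and 68.1 to 105 CPM in males). The endothelial list summed to 112 to 171 CPM in females and 98.6 to 132 CPM in males, with Flt1 at 1047 to 3649 and Pecam1 at 0 to 9 reads per library, and the muscle list to 167 to 278 CPM in females and 165 to 245 CPM in males, with Des at 2107 to 4680 and Myod1 at 0 to 4 reads. No pair of libraries of 1 sex agreed within counting noise, the smallest chi-square per degree of freedom being 7.02. Levels are exon RPKM, that is CPM of unique exon reads after TMM scaling, divided by the exon length in the table in kilobases, so that genes of different length can be set side by side.

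The 8 genes lie at 7 places in the mouse genome (mm10). Igf1 spans chr10:87858265-87937042 on the plus strand and Igf1r chr7:67952827-68233668 on the plus strand. Igfbp2 (chr1:72824503-72852474, plus) and Igfbp5 (chr1:72857932-72874884, minus) face each other, with 5457 bases between their 3′ ends. Igfbp3 (chr11:7206086-7213923, minus) has the same arrangement with Igfbp1 (chr11:7197782-7202546, plus), 3539 bases apart. Igfbp4 is elsewhere on chromosome 11 (chr11:99041244-99054392, plus), Igfbp6 on chromosome 15 (chr15:102144362-102149511, plus) and Igfbp7 on chromosome 5 (chr5:77349240-77408041, minus). Igfbp1, the liver-type binding protein, had 0 reads in all 10 libraries. At a limit of 3 counts per library that allows up to 0.0871 RPKM in the shallowest library and 0.0601 RPKM in the deepest, counting error only.

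Promoter sequences are shown for Igfbp4 and Igfbp5, the 2 genes whose exon and intron reads moved together over the libraries, and for Igfbp3, the other gene with a TATA-like word on its own strand. Each runs 5′ to 3′ on the gene's own strand, from 250 bases before the RefSeq start to 50 bases from the start on, in GRCm38.p6. Capitals mark the TATA-like match.
Igfbp4, chr11:99040994-99041293, plus strand: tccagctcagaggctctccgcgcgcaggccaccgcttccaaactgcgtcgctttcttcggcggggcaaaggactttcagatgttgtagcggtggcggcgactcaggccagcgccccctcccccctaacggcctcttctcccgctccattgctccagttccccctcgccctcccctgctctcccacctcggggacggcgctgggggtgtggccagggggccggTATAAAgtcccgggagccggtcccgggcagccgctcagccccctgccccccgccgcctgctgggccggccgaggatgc
Igfbp5, chr1:72874816-72875115, minus strand: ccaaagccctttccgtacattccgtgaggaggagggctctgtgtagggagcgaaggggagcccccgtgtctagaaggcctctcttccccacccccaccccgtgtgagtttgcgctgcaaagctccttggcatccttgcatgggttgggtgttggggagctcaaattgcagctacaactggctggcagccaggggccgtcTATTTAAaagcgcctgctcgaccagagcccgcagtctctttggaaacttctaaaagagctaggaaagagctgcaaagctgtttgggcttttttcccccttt
Igfbp3, chr11:7213874-7214173, minus strand: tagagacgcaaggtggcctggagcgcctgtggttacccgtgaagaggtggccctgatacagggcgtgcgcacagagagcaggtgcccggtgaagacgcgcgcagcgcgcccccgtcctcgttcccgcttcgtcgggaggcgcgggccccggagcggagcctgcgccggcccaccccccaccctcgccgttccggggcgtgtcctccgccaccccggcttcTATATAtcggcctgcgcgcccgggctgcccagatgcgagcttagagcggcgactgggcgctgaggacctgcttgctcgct
The match begins at position -28 from the start in Igfbp4 (TATAAA), at -51 in Igfbp5 (TATTTAA) and at -30 in Igfbp3 (TATATA). RefSeq's start is the start in the deposited table for Igfbp4 and Igfbp3, and lies 19 bases away from it for Igfbp5.

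Searched on both strands, TATAAA was in 13.6%, TATATA in 5.67% and TATTTAA in 4.51% of 32851 RefSeq windows of the same length, and at least 1 of these words in 20.2%; TATAAA and TATATA can overlap each other, and no 2 matches overlapped in the windows of the 8 genes. RefSeq gave 9 windows for the 8 genes, with a pair for Igfbp2. Igfbp6 had TATAAA only on the opposite strand, at -148. The windows of Igfbp7, Igfbp2 (the one nearer the start in the table) and Igf1r instead held 4, 3 and 2 copies of GGGCGG, the core of the GC box, a word found in 35.7% of all windows. The window of Igf1 held none of the 4 words. RefSeq's start lies 2846 bases from the start in the deposited table for Igf1, 570 for Igf1r and 176 for Igfbp6. The start in the deposited table is outside each of these windows. The words were chosen after the windows had been read, and a match is a description of the letters, not a binding site.

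The ligand was the scarcest of the 8 transcripts. Igf1 stood at 0.986, 0.990, 1.24, 1.23 and 0.969 RPKM in female replicates 1 to 5 and at 1.45, 1.13, 0.720, 0.821 and 0.753 RPKM in male replicates 1 to 5. The males held both the highest and the lowest values, and the female range lay inside the male one. With 163 to 409 unique exon reads per library, Igf1 was also the member with the lowest share of uniquely placed exon reads, 92.4% against 99.9 to 100% for the other 7.

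The receptor varied least of the 8. Igf1r stood at 40.0, 42.6, 42.3, 41.4 and 47.7 RPKM in females and at 42.0, 40.5, 42.9, 41.9 and 45.9 RPKM in males. Replicate 5 of each sex was the highest of its group, and the other 8 libraries lay between 40.0 and 42.9 RPKM. The insulin receptor Insr, which can pair with IGF1R in hybrid receptors, was lower at 7.38 to 9.19 RPKM, giving an Igf1r level 4.46 to 6.46 times that of Insr in each library. Igf2r, the receptor that carries IGF2 to lysosomes and does not signal as a kinase, stood at 94.8 to 118 RPKM in females and 93.6 to 123 RPKM in males, 1.99 to 2.94 times the Igf1r level. Igf2, the main embryonic ligand, averaged 270 ± 22.2 RPKM in females and 209 ± 37.0 RPKM in males (SD, n = 5 each), 152 to 317 times the Igf1 level of the same library.

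Igfbp7, a low-affinity binding protein of the extracellular matrix, was the most abundant of the 8. Its level was 285, 285, 258, 261 and 239 RPKM in females and 258, 282, 239, 313 and 250.05 RPKM in males. The female range lay inside the male one, and male replicate 4 was the highest library.

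Igfbp5, a matrix-bound binding protein found in bone and muscle, stood at 69.3, 122, 65.1, 53.7 and 49.4 RPKM in females and at 101, 90.2, 73.8, 63.3 and 47.8 RPKM in males. Female replicate 2 was far above the other females, and replicate 5 was the lowest library of each sex. Igfbp4, a soluble inhibitor of IGF action that the protease PAPP-A cuts, stood at 26.6, 27.8, 33.6, 42.7 and 46.7 RPKM in females and at 30.5, 42.3, 63.4, 44.2 and 87.4 RPKM in males. Male replicates 3 and 5 lay above every female library, and the other 3 males lay within the female range. Pappa, the gene of that protease, was steady at 24.4 to 29.2 RPKM in females and 20.9 to 29.1 RPKM in males.

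Igfbp6, which prefers IGF2 over IGF1, stood at 29.4, 34.3, 30.3, 29.0 and 33.2 RPKM in females and at 24.2, 27.7, 22.1, 27.2 and 30.7 RPKM in males. Only 1 male library, replicate 5, reached into the female range. Igfbp3, the main IGF carrier of adult blood, stood at 8.54, 8.83, 7.44, 8.66 and 4.40 RPKM in females and at 10.2, 8.90, 9.43, 9.18 and 6.22 RPKM in males. Replicate 5 was again the lowest of each sex. Igfbp2, a binding protein with an integrin-binding motif, stood at 3.64, 7.39, 6.18, 5.60 and 4.40 RPKM in females and at 3.31, 5.47, 7.41, 7.61 and 6.40 RPKM in males. Replicate 1 was the lowest of each sex, and the female range lay inside the male one.

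**Figure D1:**
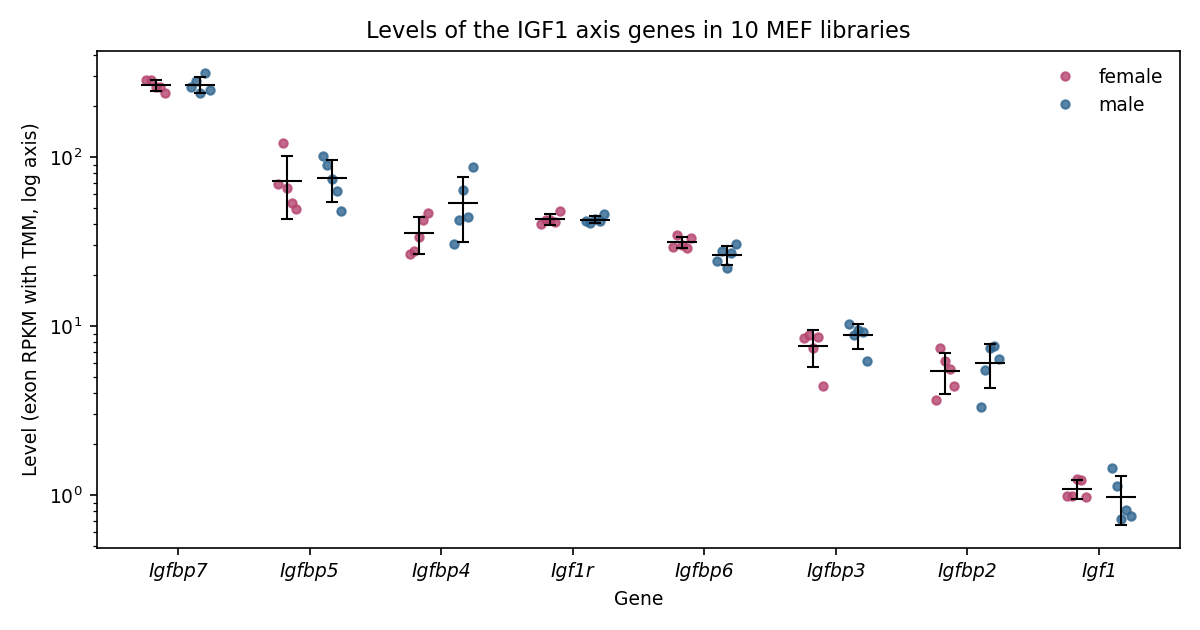
Exon RPKM (log axis) of the 8 genes, ordered by mean level, with 1 point per library, females left of males, and the mean ± SD of 5 libraries per sex as bars. Igfbp7 lies above every other gene in every library and Igf1 below every other gene; Igfbp4 and Igfbp5 are the most scattered.

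By mean over the 10 libraries the order was Igfbp7 (267 RPKM), Igfbp5 (73.6), Igfbp4 (44.5), Igf1r (42.7), Igfbp6 (28.8), Igfbp3 (8.18), Igfbp2 (5.74) and Igf1 (1.03). Igfbp7 over Igfbp5, Igf1r over Igfbp6, Igfbp6 over Igfbp3 and Igfbp2 over Igf1 held in 10 of 10 libraries with ranges that did not touch. The other neighbours were not separated beyond their spread: Igfbp5 was above Igfbp4 in 9 libraries, Igfbp4 above Igf1r in 5 and Igfbp3 above Igfbp2 in 9. Among the 13615 tested genes the mean level of Igfbp7 was at the 99.3rd percentile, that of Igf1 at the 23.2nd, and the median gene was at 4.88 RPKM.

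The summed level of the 6 binding protein genes was 377 to 485 RPKM in females and 415 to 464 RPKM in males. Igfbp7 made up most of it, 63.8 ± 3.21% in females and 61.1 ± 3.88% in males (SD, n = 5 each). Igfbp5 gave 16.9 ± 4.87% in females and 17.2 ± 4.94% in males, and Igfbp4 gave 8.69 ± 2.83% in females and 12.3 ± 5.43% in males. The share of Igfbp4 ran from 5.74% in female replicate 2 to 20.4% in male replicate 5. Igfbp6 held 7.53 ± 0.745% in females and 6.01 ± 0.697% in males, and Igfbp3 and Igfbp2 each held at most 2.39% in a library.

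**Figure D2:**
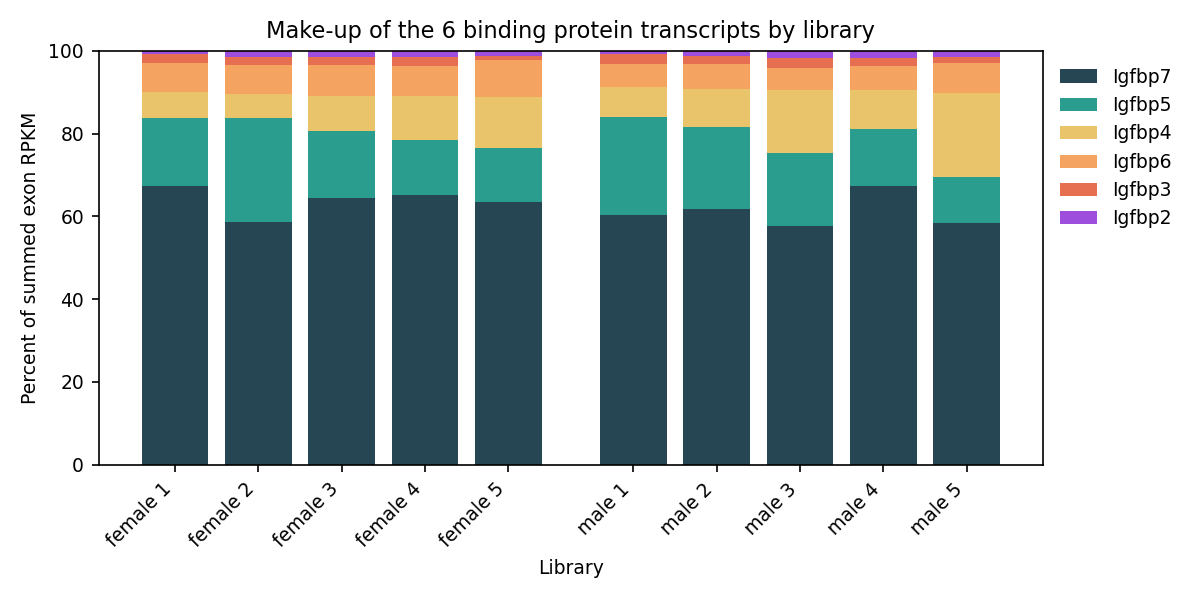
Percent of the summed exon RPKM of 6 binding protein genes in each library, females left of males, stacked to 100%. Igfbp7 fills 57.6 to 67.4% of every bar, and the Igfbp4 band widens to 20.4% in male replicate 5, where Igfbp5 is down to 11.2%.

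The question of the design was whether female and male cells differ. For none of the 8 genes did the difference pass the test over all genes. In edgeR's quasi-likelihood test with Benjamini-Hochberg adjustment over the 13615 tested genes, 0 of 8 had an adjusted p under 0.05, where 0.118% of all tested genes did (0.0441% higher and 0.0734% lower in females). Igfbp6 alone, 1 of 8, had an unadjusted p under 0.05, which 7.43% of all tested genes had. DESeq2 and limma-voom also called 0 of 8. In 0 of 8 did the female and male ranges fail to overlap, against 1.35% of tested genes. The median log2 fold change (female minus male) was -0.041 over the 8 genes and 0.0030 over all tested genes.

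Igfbp6 had the smallest p. It averaged 31.2 ± 2.38 RPKM in females and 26.4 ± 3.31 RPKM in males (SD, n = 5 each), a log2 fold change of 0.24 ± 0.084 (SE) with an edgeR p of 0.0109 and an adjusted p of 0.445. The Igfbp6 level also went with library depth, with r = 0.78 against unique exon reads over the 10 libraries (permutation p = 0.00843, adjusted p over 80 relations with library measures = 0.0963); female libraries held 26728281 to 32744611 and male libraries 22588200 to 29910227 unique exon reads, and the part of depth in the difference was not tested.

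Igfbp4 had the widest difference, 35.5 ± 8.93 RPKM in females and 53.6 ± 22.3 RPKM in males, a log2 fold change of -0.60 ± 0.30 with an edgeR p of 0.0789 and an adjusted p of 0.721. Without male replicate 5 the log2 fold change was -0.35 (adjusted p = 0.872 by edgeR). The authors' deposited table gives Igfbp4 a signed fold of -1.52 with p = 0.00657 and a false discovery rate of 0.780, the sign meaning lower in females, and gives Igfbp6 a signed fold of 1.18 with p = 0.0445 and a false discovery rate of 1. For each of the other 6 genes the authors' deposited table lists a false discovery rate of 1.

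For the remaining genes the difference was small beside its error. The log2 fold change was 0.15 ± 0.18 for Igf1, 0.0045 ± 0.053 for Igf1r, -0.15 ± 0.24 for Igfbp2, -0.21 ± 0.19 for Igfbp3, -0.066 ± 0.29 for Igfbp5 and -0.016 ± 0.071 for Igfbp7. Their adjusted p-values from edgeR lay between 0.864 and 0.995. For Igf1r and Igfbp7 the standard error was itself small, and for Igfbp5, at 0.29, it was the largest of these 6.

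**Figure D3:**
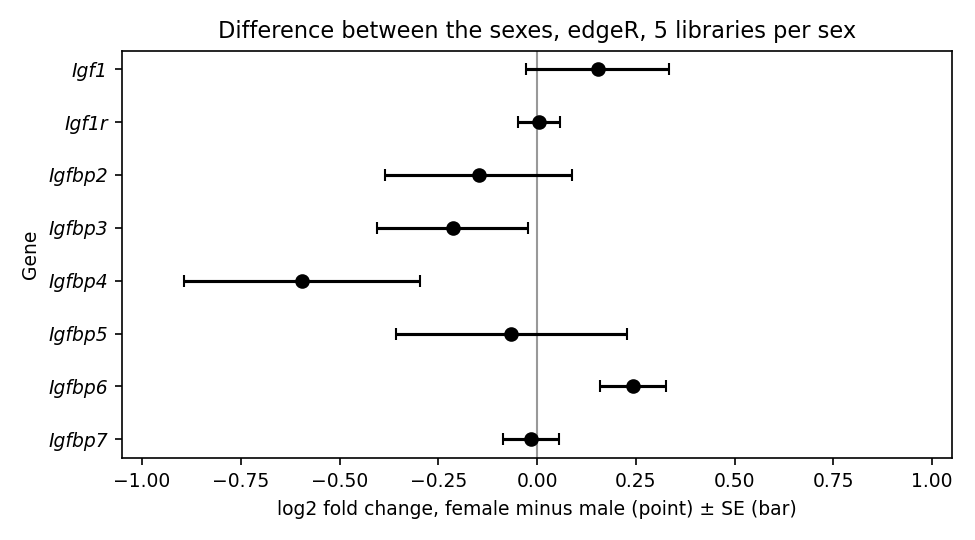
log2 fold change (female minus male, horizontal axis) of each of the 8 genes, point with ± SE, edgeR on 5 libraries per sex. The Igfbp4 point lies farthest from 0, at -0.60 ± 0.30, and the Igf1r and Igfbp7 bars are the shortest.

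The 8 genes differed widely in how far they spread over the libraries. The highest library was 3.29 times the lowest for Igfbp4, 2.55 times for Igfbp5, 2.32 times for Igfbp3, 2.30 times for Igfbp2 and 2.02 times for Igf1, but 1.55 times for Igfbp6, 1.31 times for Igfbp7 and 1.19 times for Igf1r. The biological coefficient of variation within sex, edgeR's estimate of spread beyond counting noise, was 0.323 for Igfbp4 and 0.317 for Igfbp5, at the 95.4th and 95.04th percentile of all tested genes. That of Igfbp2 was 0.258, of Igfbp3 0.209 and of Igf1 0.196, at the 79.8th percentile or higher. Igfbp6 (0.0957), Igfbp7 (0.0868) and Igf1r (0.0690) lay below the median tested gene, which was at 0.103. The median of the 8 genes was 0.202.

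Covariation was measured as Pearson's r of log2 CPM over the 10 libraries for each of the 28 pairs among the 8 genes, with 100000 permutations and adjustment over the 28 pairs. No pair passed, by r or by Spearman's rho. There were 3 pairs with an unadjusted p under 0.05, and these were the 3 of 28 with an absolute r of at least 0.632, a size reached by 9.77% of the pairs among 12201 expressed genes. The 28 values were 15 positive and 13 negative with a median of 0.046, beside a median of -0.00050 over the gene pairs. The 15 pairs among binding proteins were 8 positive and 7 negative, with a median of 0.051. The median absolute r was 0.362 over the 28 pairs and 0.287 over the gene pairs.

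The strongest pair was Igf1r with Igfbp3, at r = -0.84 (permutation p = 0.00752, adjusted p = 0.211) with Spearman's rho of only -0.33 (permutation p = 0.348). It rested on replicate 5 of each sex, the 2 libraries with the most Igf1r and the least Igfbp3, and without them r was 0.13. Igf1 with Igfbp4 had r = -0.66 (permutation p = 0.0363, adjusted p = 0.284, rho = -0.66 with permutation p = 0.0437), and r was -0.54 without male replicates 1 and 3. The sign was negative among the 5 males and positive among the 5 females, too few libraries for a test within a sex. Igfbp3 with Igfbp5 had r = 0.65 (permutation p = 0.0352, adjusted p = 0.284, rho = 0.68 with permutation p = 0.0346), and r was 0.40 without replicate 5 of each sex.

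Igf1r with Igfbp7 had r = -0.62 (permutation p = 0.0576, adjusted p = 0.284, rho = -0.66 with permutation p = 0.0440), and -0.40 without replicate 5 of each sex. Igfbp3 with Igfbp6 had r = -0.61 (permutation p = 0.0632, adjusted p = 0.284) and rho = -0.81 (permutation p = 0.00769, adjusted p = 0.215). Without the 2 libraries farthest out r was -0.62, and with unique gene reads it was -0.47. Pairs at least as strong in absolute r as the weakest of these 5 made up 11.4% of all gene pairs. Pairs at least as strong as Igf1r with Igfbp3, which rested on replicate 5 of each sex, made up 0.927%.

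**Figure D4:**
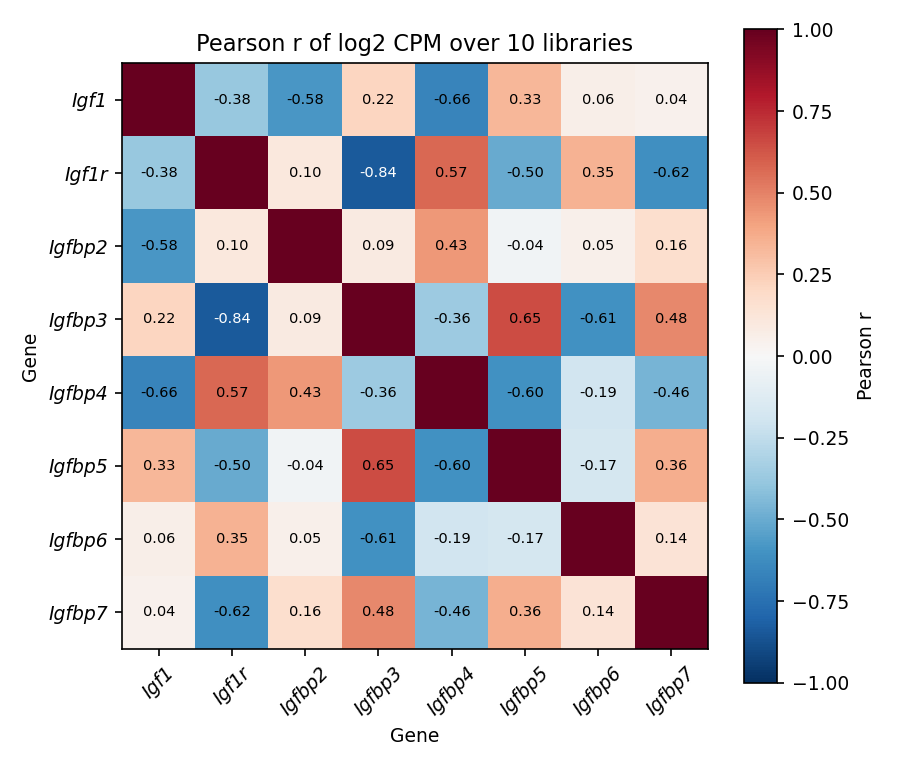
Pearson r of log2 CPM over 10 libraries for each pair of the 8 genes, with colour and printed value on the same scale from -1 to 1. Values of both signs are mixed through the grid; the darkest off-diagonal cell is Igf1r with Igfbp3 at -0.84.

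Igfbp4 and Igfbp5, singled out after their values were seen, had a negative r that did not pass. It was -0.60 (permutation p = 0.0640, adjusted p = 0.284, rho = -0.66 with permutation p = 0.0442). Without female replicate 1 and male replicate 5 r was -0.57. With each sex centred on its own mean r was -0.78, a value given without a test. The ratio of Igfbp4 to Igfbp5 level was 0.228 to 0.946 in females and 0.302 to 1.83 in males, an 8.01-fold span over the 10 libraries. Female replicate 2 had the lowest ratio and male replicate 5 the highest, the only library in which Igfbp4 was above Igfbp5.

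Since total RNA was sequenced, intron reads gave a second readout of each gene, made of reads that the exon counts do not hold. Both readouts come from the same 10 libraries, so they are not separate samples. The share of a gene's unique reads that lay in introns was 32.0% for Igf1r, 28.3% for Igf1 and 20.1% for Igfbp7, but 5.59% for Igfbp2, 2.86% for Igfbp6, 1.48% for Igfbp4, 1.34% for Igfbp3 and 1.12% for Igfbp5, beside 26.3% over all genes. Igf1r and Igf1 are also the longest genes, spanning 280842 and 78778 bases, and these shares are not corrected for intron length.

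Intron reads of Igfbp4 tracked its exon reads. In CPM of all intron reads they were 3.54, 5.11, 5.37, 8.70 and 8.64 in females and 6.53, 7.53, 14.4, 9.32 and 15.1 CPM in males. Male replicates 3 and 5 were again the highest and female replicate 1 the lowest. The exon and intron levels had r = 0.95 over the 10 libraries (permutation p = 1e-05, the smallest that 100000 permutations can give; adjusted p = 0.0146 over 11711 genes; rho = 0.95 with permutation p = 0.00012), 0.95 without the 2 libraries farthest out and 0.94 to 0.96 with each library left out.

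Igfbp5 showed the same. Its intron reads were at 11.4, 25.7, 12.9, 11.2 and 6.33 in females and 20.9, 17.9, 13.2, 12.8 and 7.83 CPM in males, so that female replicate 2 stood out here as well. The relation had r = 0.95 (permutation p = 4e-05, adjusted p = 0.0162; rho = 0.95 with permutation p = 0.00019), 0.95 without the 2 farthest libraries and 0.93 to 0.97 with each left out. Counting error is larger on this readout, with 34 to 164 intron reads per library for Igfbp4 and 66 to 236 for Igfbp5. For both genes the permutations treated the 10 libraries as unlinked, and a link between same-numbered libraries was not excluded.

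Of all genes with a mean of at least 10 intron reads, 1.77% passed this test with a positive r, and the median r was 0.26. Among the 346 of them with a within-sex variation at least that of Igfbp5, 5.78% passed and the median r was 0.24. The other 6 genes did not pass, with r of 0.58 for Igfbp2, 0.48 for Igf1, 0.47 for Igf1r, 0.27 for Igfbp6, 0.21 for Igfbp3 and -0.22 for Igfbp7 and adjusted p-values of at least 0.356. Igfbp3, Igfbp2 and Igfbp6 had few intron reads, on average 9.6, 17.6 and 26.5 per library, which limits what could be seen for them.

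**Figure D5:**
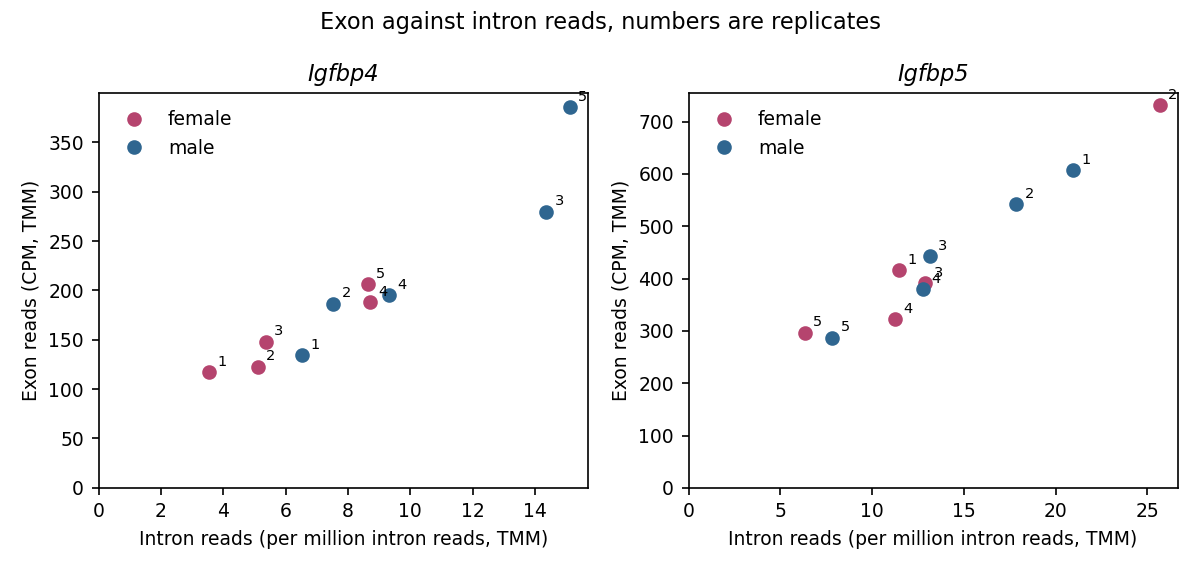
Exon CPM against intron CPM (of all intron reads) for Igfbp4 (left) and Igfbp5 (right), 1 point per library, labelled by replicate number and coloured by sex. Both panels rise along a line (r = 0.95 each), with male replicates 3 and 5 at the top for Igfbp4 and female replicate 2 at the top for Igfbp5.

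Each gene was also set against 10 library measures, the summed levels of 7 marker lists, the unique exon reads, the intron share and the share of reads on ribosomal RNA genes, which gave 80 relations adjusted together. Only 1 passed: Igfbp4 moved with the 9 epithelial and mesothelial markers, at r = 0.94 (permutation p = 8e-05, adjusted p = 0.0064, rho = 0.94 with permutation p = 0.00024) and 0.95 without the 2 libraries farthest out. Of the 12201 expressed genes 0.246% had an r with these markers at or above that of Igfbp4. The summed level of the list was 95.7 to 143 CPM in females and 112 to 185 CPM in males. In bulk RNA, more cells of a type and more RNA per cell cannot be told apart. The permutations treated the 10 libraries as unlinked. Igfbp4 was lowest in replicate 1 and highest in replicate 5 of each sex, and the marker sum was also highest in replicate 5 of each sex. A link between same-numbered libraries was not excluded.

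The list was mostly Krt19, a keratin of simple epithelia, which made up 61.8 to 74.9% of it. Krt19 stood at 66.5 to 101 CPM in females and 70.3 to 138 CPM in males and alone had r = 0.96 with Igfbp4 (permutation p = 2e-05, rho = 0.96 with permutation p = 6e-05), 0.94 without its 2 farthest libraries and 0.95 with the sexes centred. Without Krt19 the list had r = 0.63 (permutation p = 0.0594, rho = 0.71 with permutation p = 0.0267) and 0.47 without the 2 farthest libraries. The split by Krt19 was made after the data had been seen.

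The other markers did not move as 1 group with Igfbp4. Its r was 0.90 with the keratin Krt7 and 0.68 with Msln, mesothelin, but -0.33 with Wt1, -0.45 with Upk3b, -0.48 with Krt18 and -0.49 with Epcam. The defining epithelial genes were near 0, with 0 to 15 reads per library for Epcam and 0 to 13 for Cdh1, and 7 of the 9 genes had a read in every library. The part of such cells in the Igfbp4 values was not tested.

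Several relations came near the threshold without passing it. The macrophage markers had r = -0.82 with Igfbp3 (permutation p = 0.00326, rho = -0.76) and -0.80 with Igfbp5 (permutation p = 0.00485, rho = -0.84), and the cartilage and bone markers had r = 0.81 with Igfbp4 (permutation p = 0.00418, rho = 0.82), each with an adjusted p of 0.0776. The endothelial markers had r = -0.86 with Igfbp3 (permutation p = 0.00456, adjusted p = 0.0776, rho = -0.77) and 0.80 with Igf1r (permutation p = 0.00609, adjusted p = 0.0812, rho = 0.61). Without the 2 farthest libraries these 5 values were -0.73, -0.63, 0.86, -0.65 and 0.44. The sums were weighted to a few genes in each list. Mean levels were 78.8 CPM for Flt1 and 31.7 for Kdr, but 0.141 for Pecam1, among endothelial markers. Lyz2 averaged 52.3 and Csf1r 7.85 CPM among macrophage markers. Runx2 averaged 58.8, Sox9 53.2 and Col2a1 26.7 CPM among cartilage and bone markers. The part of single genes in these relations was not tested.

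For each gene the most alike genes were taken as the 2 with the highest r over the 10 libraries among the 12201 expressed genes, predicted gene models left out. These are the top of a very long list, so they describe the libraries and carry no test. Igfbp4 was most like Daam2, a formin-family regulator of actin and Wnt signalling (r = 0.98), and Plpp1, a lipid phosphate phosphatase (0.98), which ran from 38.2 to 108 RPKM. Igfbp5 was most like Tspyl2 and Igsf10 (0.94 each), and Igfbp3 most like the lysosomal protease gene Tpp1 (0.98) and Trpc4ap (0.97).

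Igfbp7 was most like Clip3 (0.94) and Pcolce, the procollagen C-proteinase enhancer (0.93), itself at 102 to 127 RPKM. Igfbp6 was most like the zinc transporter gene Slc39a11 and the ribosomal protein gene Rpl28 (0.94 each), of whose exon reads only 4.11% were unique. Igfbp2 was most like Chchd3, of the mitochondrial inner membrane organising complex, and Ankrd46 (0.89 each). Igf1r was most like Itpripl1 (0.96) and the telomere protein gene Tinf2 (0.95). Igf1 was most like Airn (0.98), an imprinted non-coding RNA made antisense to Igf2r, and the kinase gene Cdk5 (0.93). Whether strand was used in counting is not given in the sources used here, so reads of Airn and of Igf2r introns cannot be told apart.

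Of 64 other genes of the axis in 7 lists, 57 had enough reads to be tested. None passed the sex comparison in edgeR, where 0.118% of all tested genes did, and 6 of 57 had an unadjusted p under 0.05, where 7.43% of all tested genes did. Of the 57, 21 had a positive and 36 a negative log2 fold change, with a median of -0.015. The genes not tested were Insrr, Igfbp1, Igfals, Igfbpl1, Adam28, Vtn and Irs4, so that the acid-labile subunit Igfals, the partner of IGFBP3 in blood, was all but unread, at 0 to 6 reads per library.

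The smallest p of each list is given as a value only. Among ligands and receptors it was that of Igf2, at a log2 fold change of 0.37 ± 0.11 (edgeR adjusted p = 0.420). Among carriers and relatives of the binding proteins it was that of Wisp2, a CCN family gene, at 15.7 ± 3.15 RPKM in females and 23.3 ± 5.24 RPKM in males and a log2 fold change of -0.57 ± 0.18 (adjusted p = 0.428). Its relatives Cyr61 and Ctgf were abundant, at 416 to 669 and 403 to 564 RPKM. Among proteases and their inhibitors it was that of Adam12, a metalloprotease that cuts binding proteins, at 25.4 ± 3.06 RPKM in females and 21.9 ± 1.97 RPKM in males and a log2 fold change of 0.21 ± 0.081 (adjusted p = 0.547).

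Among binding partners the smallest p was that of fibronectin, Fn1, at a log2 fold change of -0.098 ± 0.078 (adjusted p = 0.842). Among receptor adaptors it was that of Grb10, an imprinted inhibitor of the receptor, at 115 ± 4.84 RPKM in females and 105 ± 7.07 RPKM in males and a log2 fold change of 0.12 ± 0.052 (adjusted p = 0.627). Downstream it was that of Foxo1, a transcription factor that AKT keeps out of the nucleus, at 2.06 ± 0.290 RPKM in females and 2.76 ± 0.528 RPKM in males and a log2 fold change of -0.42 ± 0.13 (edgeR adjusted p = 0.402). In the growth hormone list it was that of Stat5a, at a log2 fold change of -0.26 ± 0.11 (adjusted p = 0.626).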

How the data were processed

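RNA was measured in 5 female and 5 male MEF libraries. The authors deposited 1 table of 52550 genes holding whole-number read counts per library, not normalized, per the file headers, with unique and total reads split into exon, intron, junction and gene reads. The submitters' processing notes name mm10; aligner, counter and trimming: not given in the sources used here. For each gene the table also carries the authors' p-value, false discovery rate and signed fold (a score with no value between -1 and 1), from an EDGE test per the file headers; checked against the counts, a positive fold is higher in females. Of the other values per library, 100 columns were not used. Gene identifiers matched GENCODE M21 for 52403 genes, 95.2% of them with the same span.

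The members and lists were chosen with earlier results of these data known. Unique exon reads were fitted with edgeR 4.0.16 in R 4.3.3 (filterByExpr with a minimum count of 10, TMM, robust quasi-likelihood, sex as the only term, two-sided), tested on simulated data beforehand, and adjusted by Benjamini-Hochberg over 13615 genes. Standard errors were derived from the F statistic. Correlations used log2 CPM with a prior count of 2 and two-sided permutation p-values with 100000 resamples in Python 3.11.15; the exon and intron relation used genes with a mean of at least 10 intron reads, and Igfbp3, at 9.6, was added. Depth was 22588200 to 32744611 unique exon reads per library. Named genes were the 8 members, Igf2, Igf2r, Insr, Pappa, the smallest p of each list, the 2 most alike genes of each member, and the 5 pairs with the largest absolute r; Cyr61, Ctgf, Igfals and the pair of Igfbp4 and Igfbp5 were added after their values were seen. Alternatives were other scalings, filters, read classes, DESeq2 1.42.0, limma-voom (limma 3.58.1), a replicate block and each library left out. Sequences are from RefSeq (GRCm38.p6), which had all 8 genes.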

Additional observations from a re-analysis of the deposited data

Results flagged for a closer look

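Among 16 sets of 5 libraries (8 genes, 2 sexes), 1 set had a member far from its neighbours. Igfbp5 stood at 121.8 RPKM in female replicate 2, against 49.4 to 69.3 RPKM in the other 4 females. The gap was 0.725 of the whole range, a little above Dixon's 95% limit of 0.71 for 5 samples. This gap was taken on RPKM without a log scale. On a log scale it is a smaller part of the range, and with these values it lies below that limit. Chance alone marks about 1 in 20 groups, or 0.8 of 16. The intron reads of Igfbp5 were also highest in that library, at 25.7 CPM of all intron reads against 6.33 to 12.9 CPM in the other females.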

How the results depend on the processing

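None of the 8 genes passed the sex comparison under any scaling, filter, read class or tool tried. None passed with any library left out (0 to 0 calls). No pair passed under any setting, but the replicate block cannot be counted among these settings. Its 5 differences allow no exact p below 0.0167, and its lowest adjusted p over the pairs was 0.467. It could have passed a pair only if many pairs shared that smallest p. Genes called in all, 16 as reported, were 12 to 19 under 7 alternatives, 46 with no filter, 87 with DESeq2 and 10 to 23 with 1 library left out, the lowest without female replicate 3. With the replicate number as a block there were 79, the 16 among them and none a member, the lowest adjusted p of a member being 0.0854 for Igfbp6. Deviations of same-numbered libraries correlated at 0.200, 0.0757, 0.120, 0.0331 and 0.285, all positive but not all over 0.1, and not every library was closest to its own number. The labels give the numbers no meaning, so the libraries were treated as unpaired, the permutations included; a link between same-numbered libraries was not excluded. Over the 5 within-number differences, where the smallest possible exact p is 0.0167, the replicate block turned r of Igf1r with Igfbp3 to 0.069 and of Igfbp3 with Igfbp6 to 0.029. The rest of the 5 pairs with the largest absolute r kept their sign at a smaller size. They had r of -0.37 for Igf1 with Igfbp4, 0.28 for Igfbp3 with Igfbp5 and -0.25 for Igf1r with Igfbp7. The log2 fold change of Igf1r was -0.0028 with upper quartile factors. With 1 library left out it ran from -0.038 to 0.033, that of Igfbp5 from -0.34 to 0.064 and that of Igfbp7 from -0.054 to 0.045. The other 5 kept their sign but not their size: Igf1 ran from 0.066 (without male replicate 3) to 0.34 (without male replicate 1), Igfbp2 from -0.30 (without male replicate 1) to -0.035 (without female replicate 1), Igfbp3 from -0.32 (without male replicate 5) to -0.070 (without female replicate 5), Igfbp4 from -0.74 (without male replicate 1) to -0.35 (without male replicate 5) and Igfbp6 from 0.19 to 0.30. The median r over the pairs ran from -0.126 to 0.045, the lowest without male replicate 3. Counting total exon reads lowered the level of all 8 genes, to 36.7 RPKM for Igf1r, 24.7 for Igfbp6, 229.6 for Igfbp7, 63.2 for Igfbp5, 38.3 for Igfbp4, 7.03 for Igfbp3, 4.93 for Igfbp2 and 0.957 for Igf1. With total exon reads the total that counts are divided by was larger, 26237182 to 38182370 against 22588200 to 32744611 exon reads per library. The causes of the other shifts were not tested. Depth limits the intron readout most, with 4 to 29 intron reads of Igfbp3 per library.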
